A study of Homo sapiens with 30 samples.

Results

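The genes described here build and remodel the extracellular matrix. They are the 3 tissue inhibitors of metalloproteinases TIMP1, TIMP2 and TIMP3, the metalloproteinases MMP1, MMP2, MMP3 and MMP14, the adhesive glycoprotein fibronectin (FN1), the collagen cross-linking enzyme lysyl oxidase (LOX) and the matricellular protein SPARC. They were taken by symbol, 10 of the 26228 genes in the expression table. TIMP3 and FN1 were chosen by their FPKM, which was far lower in the MYCN-expressing lines than in SH-EP. Their levels against SH-EP, CYC065 responses and differences among the MYCN lines rest on the same libraries. These are given as descriptions without a test.

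RNA-Seq was performed on SH-EP, an established neuroblastoma (NB) cell line of mesenchymal type without MYCN amplification, and on 4 derivatives of it that stably carried a retroviral WT, T58A, S62A or T58A S62A MYCN transgene driven by an exogenous promoter. The mutated residues are phosphorylation sites that govern how long the MYCN protein lasts. Each of the 5 lines was grown in DMEM with 10% FBS and treated for 6 hours with the vehicle DMSO or with 1 µM CYC065 (fadraciclib), an inhibitor of CDK9 and CDK2, giving 10 groups of 3 libraries. Whether a line was a pool or 1 clone, and whether the 3 libraries of a group came from separate cultures, was not given, so that p-values measure only the spread between these samples.

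TIMPs bind the active site of metalloproteinases and block them. TIMP3 stays bound to the matrix and also inhibits ADAM and ADAMTS proteases, and TIMP2 has a second role, since together with MMP14 at the cell surface it presents the MMP2 precursor for cleavage. Fibronectin is the integrin ligand on which fibroblast-like cells assemble their matrix, SPARC binds collagen and loosens adhesion, and high levels of these genes are typical of mesenchymal cells.

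MYCN was listed at 0 in all 6 SH-EP libraries and averaged 12.9 ± 1.09 FPKM in WT, 8.52 ± 1.29 in T58A, 5.72 ± 0.778 in S62A, with T58A S62A at 13.5 ± 3.83, under DMSO (SD, n = 3 each). Of the mesenchymal markers, PRRX1, VIM and CD44 had a higher mean in SH-EP than in each MYCN line under either treatment (VIM 2496 FPKM against 1335 to 1766 under DMSO). SNAI2 did so under DMSO (21.3 against at most 12.03), but with CYC065 it was at 9.23 in SH-EP, 14.2 in WT and 15.5 in S62A. The 4 adrenergic NB markers PHOX2A, DBH, TH and CHGA, and 3 markers each of epithelial, endothelial and blood cells, stayed under 1 FPKM in every library. Their part in the results was not tested. Library depth was estimated from the most common ratio of nonzero FPKM values under 1 between each library and 1 reference library. It was 0.470 to 1 of the deepest library under DMSO and 0.293 to 0.554 with CYC065. The 6 SH-EP libraries carried index sequences that were used again for MYCN-line libraries, so that a separate sequencing pool and the line effect against SH-EP cannot be told apart.

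TIMP3 lies on chromosome 22 (GRCh37 33197691 to 33259028, plus strand), wholly inside an intron of SYN3, which is read from the other strand. SYN3 did not exceed 0.381 FPKM in any library, and the libraries kept strand. TIMP1 sits in the same way in an intron of SYN1 on chromosome X (47441807 to 47446188). FN1 is on chromosome 2 (216225163 to 216300796, minus strand), while LOX (121398890 to 121414108) and SPARC (151040657 to 151066536) are both on the minus strand of chromosome 5. MMP1 (102660132 to 102668891) and MMP3 (102706532 to 102714340) neighbour each other on chromosome 11, 37640 bases apart. MMP2 is on chromosome 16 (55423612 to 55540603), MMP14 on chromosome 14 (23305769 to 23318250) and TIMP2 on chromosome 17 (76849059 to 76921469).

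The stretches before the RefSeq starts of TIMP3 and FN1 are shown because these 2 genes lie farthest from SH-EP in the MYCN lines. They were located in GRCh37 by exact match, at chr22:33197441-33197690 (plus strand) and chr2:216300792-216301041 (minus strand), and capitals mark the SP1 letters GGGCGG on either strand.
TIMP3: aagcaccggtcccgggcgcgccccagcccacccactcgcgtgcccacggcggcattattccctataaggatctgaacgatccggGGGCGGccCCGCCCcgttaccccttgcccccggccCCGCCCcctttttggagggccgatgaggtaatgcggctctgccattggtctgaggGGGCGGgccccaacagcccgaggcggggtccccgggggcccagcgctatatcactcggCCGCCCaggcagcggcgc
FN1: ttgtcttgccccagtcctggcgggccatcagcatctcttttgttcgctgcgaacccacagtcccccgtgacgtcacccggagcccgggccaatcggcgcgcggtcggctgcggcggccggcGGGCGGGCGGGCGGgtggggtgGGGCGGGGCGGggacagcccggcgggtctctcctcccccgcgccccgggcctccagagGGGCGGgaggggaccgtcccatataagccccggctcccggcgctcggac
GC content was 72.4% before TIMP3 and 76.4% before FN1, against a median of 58% over 35116 promoter stretches of the same length. GGGCGG occurred at 5 places before TIMP3 and at 6, some overlapping, before FN1, and in 42.6% of all stretches. Of the 6 members with a RefSeq entry (TIMP1, TIMP3, MMP14, FN1, LOX and SPARC), 5 held GGGCGG and SPARC did not. LOX had 3 listed starts, of which only the first was searched. The E-box letters CACGTG, found in 6.34% of all stretches, the AP-1 letters TGACTCA (4.2%) and the TATA letters TATAAA (10.7%) were in none of these 6 windows.

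SH-EP expressed the inhibitors at nearly equal levels. Under DMSO the TIMP3 level per length was 188, 188 and 193 FPKM in the 3 SH-EP libraries. It was 21.5, 21.8 and 23.1 in WT, 10.9, 11.3 and 11.5 in T58A, 19.9, 20.4 and 20.9 in S62A, and 14.7, 14.8 and 15.5 in T58A S62A. No MYCN-line library reached the lowest SH-EP library, and T58A was the lowest line. Relative to SH-EP, the mean difference over the 4 lines was -3.51 ± 0.04 on the log2(FPKM + 0.1) scale (SE), from 8.53-fold lower in WT to 16.8-fold lower in T58A. In bulk RNA, fewer cells making a transcript and less of it in each cell cannot be told apart.

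TIMP1, the secreted inhibitor that is a poor inhibitor of MMP14, was far less reduced. Its DMSO levels were 176, 181 and 186 FPKM in SH-EP and 131, 152 and 160.0 in WT, with lower values of 88.3, 102 and 103 in T58A, 115, 117 and 138 in S62A, and 69.1, 90.5 and 111 in T58A S62A. It fell in all 4 lines by limma (mean log2 difference -0.69 ± 0.09 SE, adjusted p = 2.09e-07). The WT difference was the smallest, 1.23-fold lower with an adjusted p of 0.0247, and leaving out SH-EP library 1 or 2, or WT library 2, raised that p to 0.0728, 0.0529 or 0.142 (table columns number the libraries from 0 to 2).

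TIMP2 gave 176, 178 and 179 FPKM in SH-EP, 82.9, 87.0 and 90.3 in WT, 63.2, 63.3 and 65.7 in T58A, 128, 128 and 131 in S62A, and 65.7, 66.1 and 72.3 in T58A S62A. All 12 MYCN-line libraries were below the 3 SH-EP libraries. It fell in each line (mean log2 difference -1.09 ± 0.03, limma adjusted p = 1.36e-18), between 1.38-fold in S62A and 2.77-fold in T58A.

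**Figure D1:**
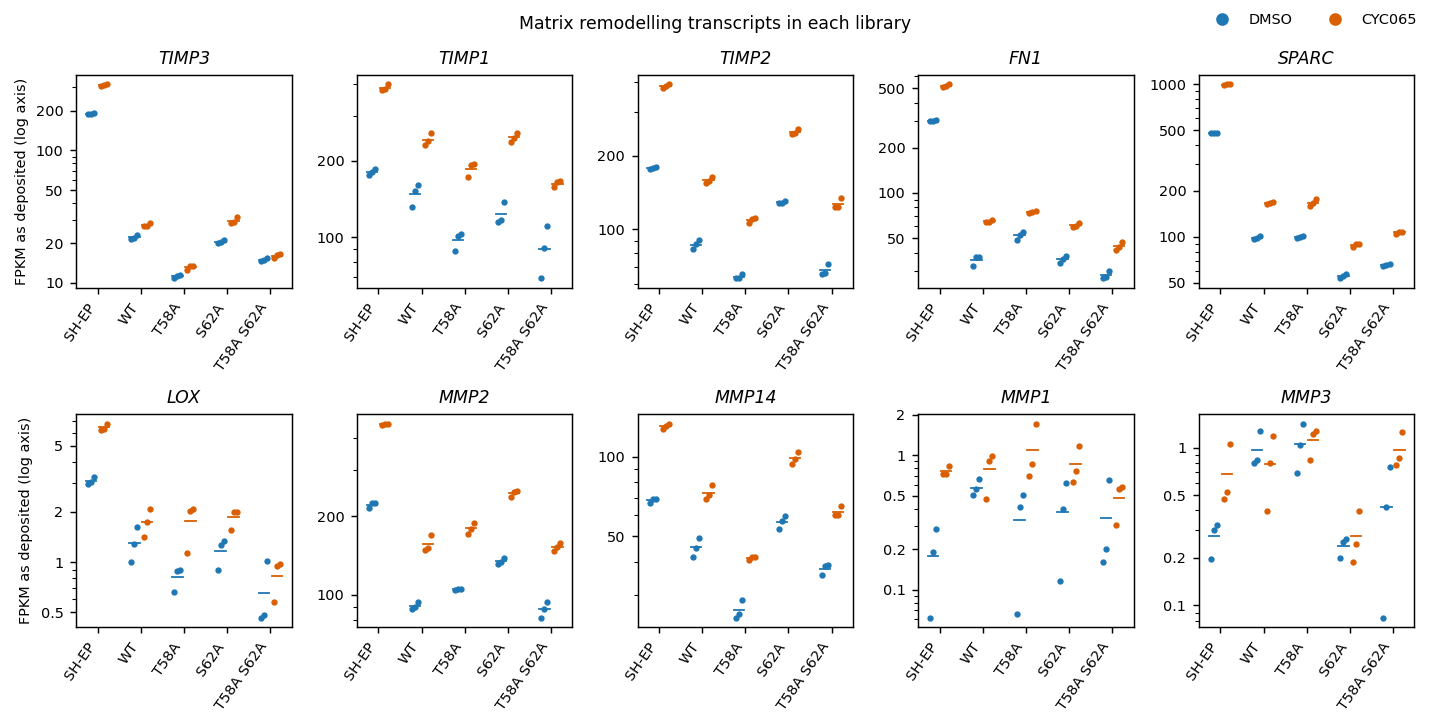
FPKM as deposited, on log axes, for each of the 10 genes in the 5 lines; each point is 1 of 3 libraries, short lines are means, blue is DMSO and orange CYC065. SH-EP lies above every MYCN line for 8 of the genes, TIMP3 under DMSO at 188 to 193 against 10.9 to 23.1 FPKM, while MMP1 and MMP3 stay at or below 1.72 FPKM, where MMP3 under DMSO is higher in WT and T58A (0.695 to 1.42) than in SH-EP and S62A (0.198 to 0.325).

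Among the matrix components, FN1 under DMSO was at 301, 302 and 305 FPKM in SH-EP. It was at 32.5, 37.4 and 37.5 in WT, 48.9, 52.3 and 55 in T58A, 34.2, 36.1 and 38.1 in S62A, and 27.0, 27.7 and 30.05 in T58A S62A. The groups were far apart, with a mean log2 difference of -3.03 ± 0.04, and T58A kept the most FN1 of the 4 lines (5.81-fold lower than SH-EP, against 10.7-fold in T58A S62A).

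SPARC, which the choice of genes did not use, behaved in much the same range. It was at 476, 477 and 482 FPKM in SH-EP, 97.3, 98.0 and 102 in WT, 99.2, 101 and 101 in T58A, 53.7, 55.6 and 56.9 in S62A, and 64.6, 65.1 and 66.6 in T58A S62A. The spread within each group was small beside the gap to SH-EP, and SPARC fell in all 4 lines (mean log2 difference -2.62 ± 0.03, limma adjusted p = 1.05e-27), by 4.76-fold in T58A up to 8.62-fold in S62A.

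LOX was a low-level gene. SH-EP gave 2.93, 3.01 and 3.22 FPKM, and the 12 MYCN-line libraries lay between 0.465 in T58A S62A and 1.63 in WT. It fell in all 4 lines (mean log2 difference -1.62 ± 0.21, limma adjusted p = 2.96e-07), with an SE several times that of the abundant genes.

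Of the proteases, MMP2, a gelatinase that cleaves denatured collagen and basement membrane collagen, was at 215, 225 and 225 FPKM in SH-EP. It was at 88.4, 89.7 and 93.8 in WT, 104, 105 and 105 in T58A, 131, 134 and 139 in S62A, and 81.7, 88.2 and 93.6 in T58A S62A. MMP2 fell in all 4 lines (mean log2 difference -1.11 ± 0.04, limma adjusted p = 2.69e-17), least in S62A, at 1.65-fold.

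MMP14, the membrane-bound collagenase that activates MMP2, was at 67.1, 68.9 and 69.3 FPKM in SH-EP. It was at 41.6, 45.2 and 49.4 in WT, 24.7, 25.5 and 28.7 in T58A, 53.1, 57.3 and 59.7 in S62A, and 35.8, 38.6 and 38.9 in T58A S62A. It fell in all 4 lines (mean log2 difference -0.78 ± 0.05, limma adjusted p = 2.64e-12), from 1.21-fold in S62A to 2.60-fold in T58A.

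The interstitial collagenase MMP1 and the stromelysin MMP3 hardly registered. MMP1 ranged from 0.0621 to 0.663 FPKM over all DMSO libraries and reached 1.72 in 1 T58A library with CYC065. MMP3 ranged from 0.0837 to 1.42 FPKM under DMSO and was no higher than 1.28 with CYC065. Both had a mean under the 1 FPKM needed for testing. Under DMSO the MMP3 libraries of WT (0.802, 0.834 and 1.28) and T58A (0.695, 1.03 and 1.42) lay above those of SH-EP (0.198, 0.301 and 0.325) and of S62A (0.201, 0.252 and 0.264), while T58A S62A spread from 0.0837 to 0.752. In the fit without a filter MMP3 was higher than in SH-EP in WT (log2 difference 1.51 ± 0.43, limma adjusted p = 0.00797) and in T58A (1.59 ± 0.43, adjusted p = 0.00528), the opposite direction to the other 8 members. MMP1 was higher in WT (0.506 to 0.663 FPKM) than in SH-EP (0.0621 to 0.284), at 1.36 ± 0.51 (limma adjusted p = 0.0399), and in the other lines it overlapped SH-EP. Scaled to the spike-ins, MMP3 in T58A (1.35 to 1.98) still lay above SH-EP (0.638 to 1.07), but WT overlapped SH-EP for both genes. With CYC065, MMP1 as deposited stood above the DMSO libraries in SH-EP (0.721 to 0.829 FPKM), T58A (0.705 to 1.72) and S62A (0.632 to 1.18). In WT and T58A S62A it overlapped them. Scaled to the spike-ins, MMP1 with CYC065 lay below the DMSO libraries in WT (0.171 to 0.424 against 0.570 to 0.918). In the other lines it overlapped them (SH-EP 0.843 to 1.19 with CYC065, 0.204 to 0.915 under DMSO).

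All 6 tested members that the choice did not use (TIMP1, TIMP2, MMP2, MMP14, LOX and SPARC) were lower in all 4 MYCN lines, and none of them was higher. Over all 11575 genes tested, 13.4% were lower and 19.2% higher in all 4 lines, and the share lower in a single line's test was 22.6% (WT), 23.3% (T58A), 23.4% (S62A) and 24.1% (T58A S62A). On the deposited scale the median gene differed by 0.06. Scaled to the ERCC spike-ins, which were added per cell, the median gene was at -1.17 and the members moved down with it, TIMP1 to a mean of -1.94, MMP2 to -2.35 and SPARC to -3.87, all below that median.

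The line difference was measured again with CYC065, where TIMP3 was at 309, 310.0 and 316 FPKM in SH-EP. It was at 26.8, 26.9 and 28.3 in WT, 12.5, 13.4 and 13.5 in T58A, 28.4, 28.7 and 31.7 in S62A, and 15.3, 16.2 and 16.6 in T58A S62A. No MYCN-line library came near SH-EP, and the mean log2 difference was -3.93 ± 0.04, from 10.5-fold lower in S62A to 23.5-fold lower in T58A.

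FN1 with CYC065 was at 508, 514 and 530.0 FPKM in SH-EP, 64.1, 64.2 and 65.8 in WT, 73.7, 75.2 and 76.2 in T58A, 59.3, 60.6 and 63.3 in S62A, and 41.7, 43.5 and 47.1 in T58A S62A. The mean log2 difference was -3.10 ± 0.04. SPARC, tested here as under DMSO, was at 984, 996 and 998 FPKM in SH-EP against 86.1 to 178 over the 12 MYCN-line libraries (mean log2 difference -2.96 ± 0.03, limma adjusted p = 7.13e-29).

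The other 5 tested members were also lower in every line, with mean log2 differences of -0.91 for TIMP1, -1.32 for TIMP2, -1.33 for MMP2, -0.99 for MMP14 and -2.07 for LOX. Thus 6 of the 6 members that the choice did not use were lower in all 4 lines and 0 were higher, where 21.0% of all genes were lower and 22.3% higher. By line, the share of all genes that was lower was 32.3% (WT), 31.9% (T58A), 32.3% (S62A) and 31.7% (T58A S62A). The cell lines are those of the DMSO comparison, so this is no second derivation of the lines.

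**Figure D2:**
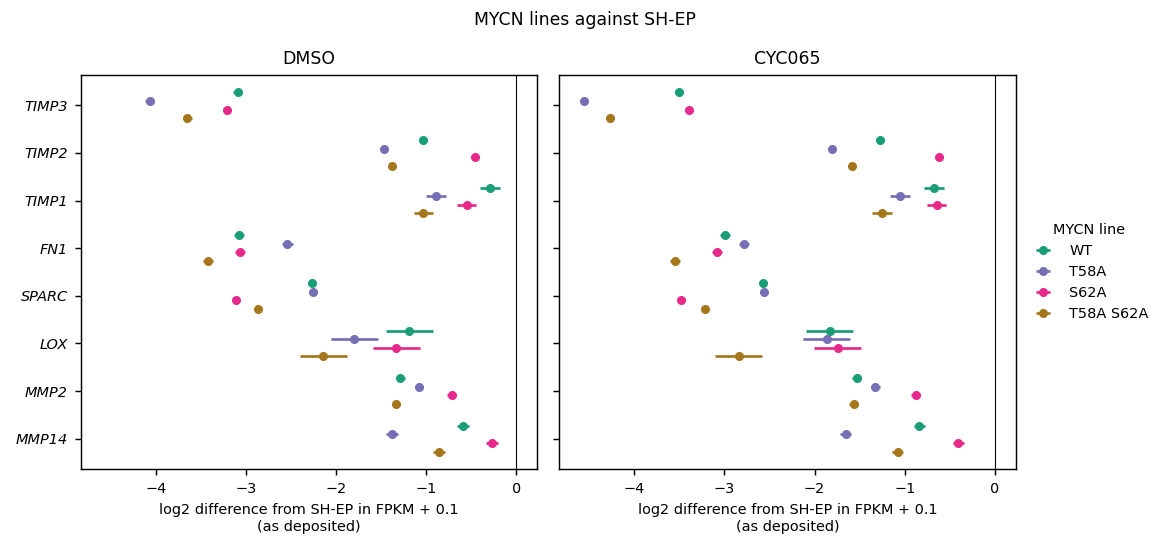
Difference of each MYCN line from SH-EP in log2(FPKM + 0.1), as deposited, for the 8 tested genes under DMSO (left) and CYC065 (right); points are estimates and bars their SE. Every point lies left of 0, with TIMP3, FN1 and SPARC farthest (TIMP3 mean -3.51 and -3.93) and TIMP1 and MMP14 nearest.

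Exposure to CYC065 for 6 hours was compared within each line on FPKM scaled to the spike-ins, the cell-number scale that the study used for this drug. On that scale the median gene changed by -1.06 (log2) in SH-EP, -1.57 in WT, -1.08 in T58A, -1.35 in S62A, and T58A S62A had a median of -0.97. Most genes fell, 93.7% (WT), 84.2% (T58A), 90.2% (S62A), 76.3% (T58A S62A) and 75.7% (SH-EP), with 69.4% lower and 0.501% higher in all 5 lines.

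TIMP3 was lower with CYC065 in all 5 lines. Its spike-in scaled level in SH-EP went from 589, 604 and 619 under DMSO to 361, 445 and 450 with CYC065. In WT it went from 24.2, 27.9 and 38.0 to 9.69, 11.3 and 13.2, and in T58A from 13.5, 20.8 and 22.3 to 9.11, 9.49 and 9.77. In S62A it went from 15.1, 16.8 and 18.6 to 7.46, 8.97 and 9.42, and in T58A S62A from 24.5, 26.5 and 29.7 to 10.7, 14.4 and 16.2. No CYC065 library overlapped the DMSO libraries of its own line. The log2 change was -0.53 ± 0.19 in SH-EP and averaged -1.07 ± 0.09 over the MYCN lines, 2.10-fold lower. These values share their libraries with the choice of TIMP3 and FN1 and were not tested.

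FN1 was lower as well, 1.39-fold in SH-EP (log2 change -0.48 ± 0.19) and a mean of 1.59-fold in the MYCN lines (-0.67 ± 0.10). Its scaled SH-EP level was 929, 973 and 990 under DMSO and 601, 729 and 754 with CYC065. Without SH-EP CYC065 library 2 the SH-EP changes were -0.43 for TIMP3 and -0.38 for FN1, and in T58A S62A the FN1 change of -0.44 moved to -0.26 without CYC065 library 1 of that line.

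The other 6 members varied by line. All 6 fell in WT, with log2 changes of -0.82 for TIMP2, -0.90 for MMP2, -0.94 for SPARC, -0.97 for TIMP1, -0.99 for MMP14 and -1.15 for LOX, and all 6 fell in S62A (-0.50 for TIMP1 to -0.82 for SPARC). In T58A, TIMP2, MMP2, MMP14 and SPARC fell (-0.41 to -0.53), whereas TIMP1 (-0.26) and LOX (-0.12) did not pass the test. In SH-EP and T58A S62A none of the 6 passed, with changes between -0.14 and -0.32 in SH-EP and between -0.18 and -0.61 in T58A S62A. With only the groups compared in the fit, MMP14 passed in SH-EP at the same -0.32 (limma adjusted p = 0.0122). Such fits took the lower pairs of all 8 members, TIMP3 and FN1 counted, from 26 to 22. For these 6 members 16 of 30 member and line pairs were lower and 0 higher, and 9 of the 16 kept their call whichever single library was left out, 6 in WT, 3 in S62A and 0 in T58A. Without SH-EP CYC065 library 2 the SH-EP changes of TIMP1 and TIMP2 moved from -0.15 and -0.14 to -0.049 and -0.032. T58A DMSO library 1 had a spike-in scaling factor of 0.26 (log2) against 0.94 and 0.95 in the other two of its group, and without it TIMP1 passed in T58A (-0.45, limma adjusted p = 0.0480) and LOX (-0.61, 0.0424), MMP14 (-0.37, 0.0411) and SPARC (-0.37, 0.0249) passed in T58A S62A.

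All 8 genes nevertheless changed less than the median gene of the same line, with the exception of TIMP3 in T58A S62A, which was at the median (-0.98 against -0.97). Relative to that median TIMP1, TIMP2 and SPARC stood 0.91, 0.92 and 0.87 higher in SH-EP, and TIMP3 0.53 higher. On the deposited scale, where each library is set relative to its own RNA, the direction turned. All 8 were higher in SH-EP (0.72 for TIMP3 to 1.11 for TIMP2). TIMP3 and FN1 are included here as descriptions without a test. The median gene on the same scale rose by 0.15 in SH-EP and by 0.08 for the mean of the MYCN lines. There TIMP3 rose least, by a mean of 0.29 ± 0.02 over the MYCN lines against 0.69 for FN1 and 0.72 for SPARC, and its change in T58A S62A was 0.09. On this scale 5 of the 6 members that the choice did not use were higher in all 5 lines, where 28.5% of all genes were higher and 24.4% lower.

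**Figure D3:**
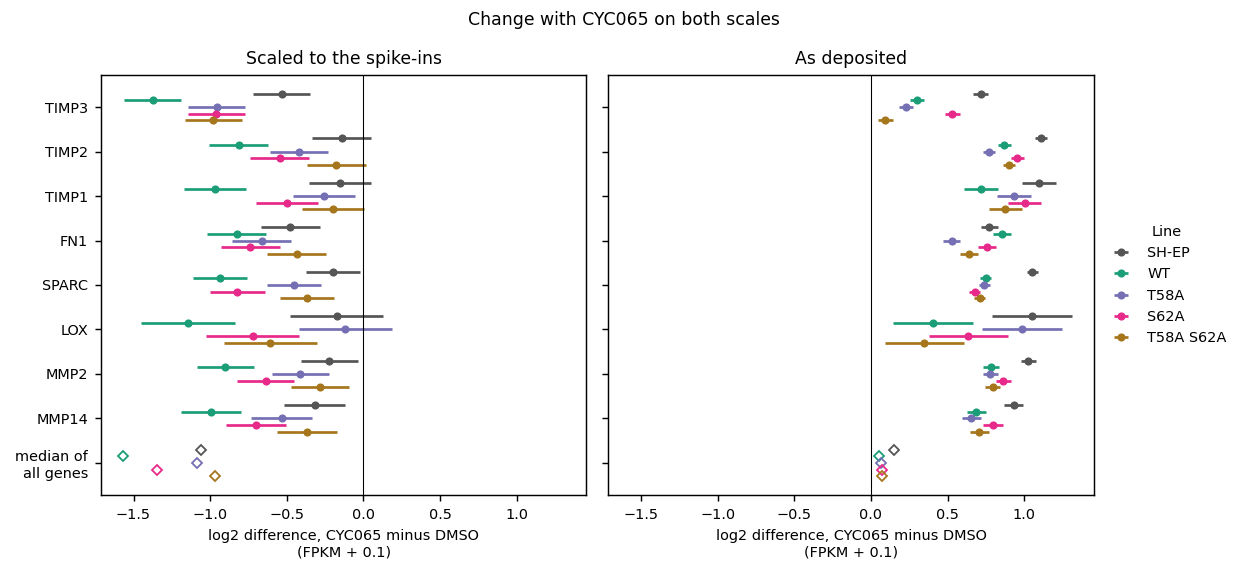
Change with CYC065 (CYC065 minus DMSO, log2 of FPKM + 0.1) in each of 5 lines, scaled to the spike-ins (left) and as deposited (right); points are estimates, bars their SE, and open diamonds the median of all 11575 genes. The points lie left of 0 on the spike-in scale and right of it as deposited, and on both scales to the right of the median of their line apart from TIMP3 in T58A S62A (-0.98 against -0.97, spike-in scale).

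Whether the MYCN lines responded to CYC065 differently from SH-EP was tested as an interaction on the spike-in scale, for the 6 members that the choice did not use. TIMP1 fell more in WT than in SH-EP by -0.81 ± 0.29 (log2, adjusted p = 0.0488), and SPARC by -0.74 ± 0.25 (adjusted p = 0.0442). Neither call was firm: of 30 fits that left out 1 library, 21 lost TIMP1 and 14 lost SPARC, and both were lost with a pseudocount of 1 (0.0560 and 0.0510), without a filter (0.0739 and 0.0624) and when only the groups compared were fitted (0.0585 and 0.0550). The remaining 4 had WT estimates between -0.67 and -0.97 that did not pass (adjusted p from 0.0626 for MMP2 to 0.0933 for LOX). In WT 16.3% of all genes had a lower and 1.89% a higher interaction, and the median gene was itself at -0.52.

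None of the 6 passed in T58A (all genes 0.311% lower, 2.28% higher), S62A (1.87% lower, 3.08% higher) or T58A S62A (0.199% lower, 5.21% higher). For TIMP3 the estimate was -0.84 in WT, and it lay between -0.42 and -0.44 in the other 3 lines, and for FN1 it was -0.35 in WT and ran from -0.26 to 0.04 in the others, given as a description. On the deposited scale the SEs were smaller: SPARC had a lower response in each MYCN line than in SH-EP (WT -0.31, T58A -0.31, S62A -0.38, T58A S62A -0.34, SE 0.05), where 4.79% of all genes did so.

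The 4 MYCN lines were also compared with each other under DMSO. The choice of TIMP3 and FN1 went by their level against SH-EP, but it used these same libraries. Their values here are descriptions. Counting them, 37 of 48 member and pair comparisons were under the threshold. T58A differed from WT in 4 of the 6 members that the choice did not use, where 23.6% of all genes differed. Lower in T58A were MMP14 (-0.79 ± 0.06, adjusted p = 4.07e-09), TIMP1 (-0.60) and TIMP2 (-0.44), and MMP2 was higher (0.21). Without a test, TIMP3 stood at -0.97 ± 0.05 and FN1 at 0.54 ± 0.06. S62A differed from WT in 4 (all genes 24.1%): TIMP2 and MMP2 were both 0.57 higher, MMP14 was 0.32 higher, and SPARC was 0.84 lower (-0.84 ± 0.04, adjusted p = 1.42e-14). T58A S62A was lower than WT in 5 of the 6 and higher in 0 (all genes 23.7%), led by LOX (-0.95), TIMP1 (-0.73) and SPARC (-0.60), and MMP2 differed by -0.05 and did not pass. With only these groups in the fit, LOX (limma adjusted p = 0.128), TIMP1 (0.0683) and MMP14 (0.0963) lost this call, and LOX also lost it without T58A S62A library 0 (0.0592) or WT library 1 (0.0571).

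Of the 6 members that the choice did not use, 5 differed between S62A and T58A (all genes 32.8%). MMP14 was 2.16-fold and TIMP2 2.01-fold higher in S62A, and SPARC was lower (-0.86). T58A S62A differed from T58A in 3 of the 6, with MMP14 higher and MMP2 and SPARC lower (all genes 16.7%). It differed from S62A in all 6, with only SPARC higher (all genes 30.7%). Without a test, TIMP3 was 1.81-fold higher and FN1 lower (-0.53) in S62A than in T58A. In T58A S62A, TIMP3 was above T58A and below S62A, and FN1 was below both. Every neighbouring pair of lines in the order of TIMP2, TIMP3 and MMP14 was separate, the highest library of the lower line lying under the lowest of the higher. The order overlapped between WT and S62A and between T58A and T58A S62A for TIMP1, between S62A and WT for FN1, between T58A and WT for SPARC, between WT and T58A S62A for MMP2, and throughout the MYCN lines for LOX.

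These orders depend on the scale. Spike-in scaling shifted the median gene by 0.28 in T58A against WT, by -0.71 in S62A against WT and by 1.09 in T58A S62A against S62A. With TIMP3 and FN1 counted, 18 rather than 37 of the 48 comparisons were under the threshold. Without a test, TIMP3 of T58A against WT stayed lower (-0.68) and its FN1 higher (0.84), while TIMP3 of S62A against T58A turned to -0.14. The lower SPARC of S62A (-1.53 against WT and -1.85 against T58A) passed on both scales. The higher TIMP2 and MMP14 of S62A against T58A did not, with spike-in scaled differences of 0.0067 and 0.11. Nor did the higher TIMP2, MMP2 and MMP14 of S62A against WT, with spike-in scaled differences of -0.13, -0.13 and -0.37.

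Ratios of members within a library do not depend on the scale, and as FPKM is per length they can be set side by side. TIMP3 supplied 34.6%, 34.6% and 34.7% of the summed TIMP1, TIMP2 and TIMP3 FPKM in the SH-EP DMSO libraries, near an equal share. Its mean share was 8.65% ± 0.522 in WT, 6.49% ± 0.171 in T58A, 7.49% ± 0.196 in S62A, with T58A S62A at 8.78% ± 1.19 (SD, n = 3), and no MYCN-line library exceeded 9.82%. TIMP1 took the largest share in WT (57.5%), T58A (56.4%) and T58A S62A (51.6%), and TIMP2 in S62A (47.3%), though its libraries overlapped those of TIMP1 there. With CYC065 the TIMP3 share was lower in every line, at 28.8% ± 0.121 in SH-EP with WT at 6.39%, T58A at 4.26%, S62A at 5.62% and T58A S62A at 5.25%, and in each line all 3 CYC065 libraries were below all 3 DMSO libraries.

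The protease MMP2 and its inhibitor and activation partner TIMP2 both fell. Their ratio was below SH-EP in WT and S62A, overlapped it in T58A S62A and was above it in T58A. MMP2 per TIMP2 was 1.22, 1.26 and 1.27 in SH-EP, 1.03, 1.04 and 1.07 in WT, 1.01, 1.05 and 1.09 in S62A, and 1.24, 1.29 and 1.34 in T58A S62A. T58A stood apart with 1.60, 1.65 and 1.66, above every library of the other lines, and it did so with CYC065 as well (1.61, 1.61 and 1.71). FN1 per TIMP3 was likewise highest in T58A, at 4.34, 4.54 and 5.06 under DMSO, where the other 4 lines lay between 1.41 and 2.03.

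**Figure D4:**
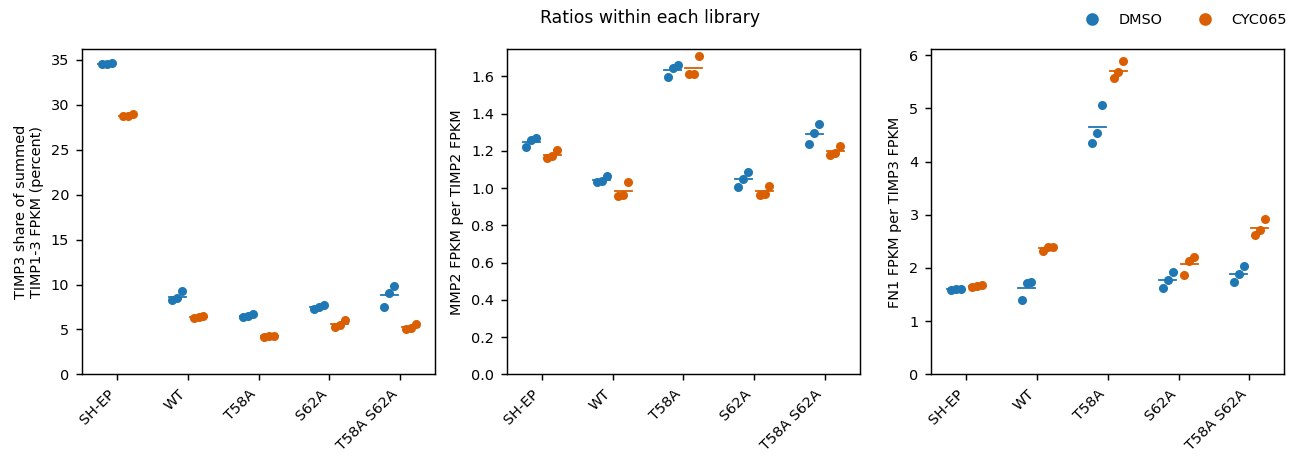
TIMP3 as a percent of the summed TIMP1, TIMP2 and TIMP3 FPKM, MMP2 per TIMP2, and FN1 per TIMP3 in each line; points are 3 libraries per group, short lines are means, blue is DMSO and orange CYC065. The TIMP3 share is 34.6% in SH-EP under DMSO and under 10% in the MYCN lines, and T58A is highest in both ratios.

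The wider matrix machinery was followed in 97 further genes in 8 lists, of which 49 passed the filter. Of these 49, 30 were lower and 2 higher in all 4 MYCN lines under DMSO (61.2% and 4.08%, beside the 13.4% and 19.2% of all genes). Of the called genes 4 passed the filter only through the side where they were high, the lower MMP28 and SPOCK3 and both higher genes, ADAMTS1 and SPARCL1, so that their calls follow in part from the filter, and 28 lower and 0 higher genes remained without them. Matrix glycoproteins had 12 of 16 tested genes lower and 0 higher, with a median log2 difference of -1.20 against 0.06 for all genes. The largest were THBS3 (-2.57), a thrombospondin, MFAP4 (-2.48), a microfibril protein, and EFEMP2 (-2.31), a fibulin needed for elastic fibres.

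The lysyl oxidase relatives LOXL2 (-2.04), LOXL3 (-1.84) and LOXL1 (-1.02), which cross-link collagen and elastin as LOX does, were all lower, 3 of 3 tested. Other protease inhibitors were lower in 4 of 6, with the collagen chaperone SERPINH1 at -1.51 ± 0.06, the broad inhibitor A2M at -1.5 and RECK, a membrane-anchored inhibitor of metalloproteinases, at -1.04. In the plasminogen system PLAT, the tissue plasminogen activator, was at -2.72 and PLAUR, the urokinase receptor, at -0.72, and both were lower in all 4 lines. Urokinase itself (PLAU) had a mean of 0.93 and was higher in 3 of the 4 lines.

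ADAM and ADAMTS proteases, which TIMP3 can inhibit, were lower in 5 of 10 tested, including ADAMTS9 (-3.08) and ADAMTS12 (-2.07), and higher in 1, ADAMTS1 (1.10 FPKM in SH-EP and 3.32 to 7.12 in the MYCN lines). Of 19 other metalloproteinases only MMP28 and MMP16 passed the filter, and MMP28 averaged 3.69 FPKM in SH-EP and at most 0.928 in the MYCN lines. The SPARC family had 2 of 4 lower, SPOCK3 (-1.26) and FSTL1 (-1.11), and 1 higher, the SPARC relative SPARCL1, which averaged 0.0363 FPKM in SH-EP, under the pseudocount, and 0.891 to 12.4 in the MYCN lines. Cathepsins had CTSB lower (-0.60) of 5 tested, while CTSS (-1.22) and CTSK (-0.71) passed in 3 lines and in 1 line.

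**Figure D5:**
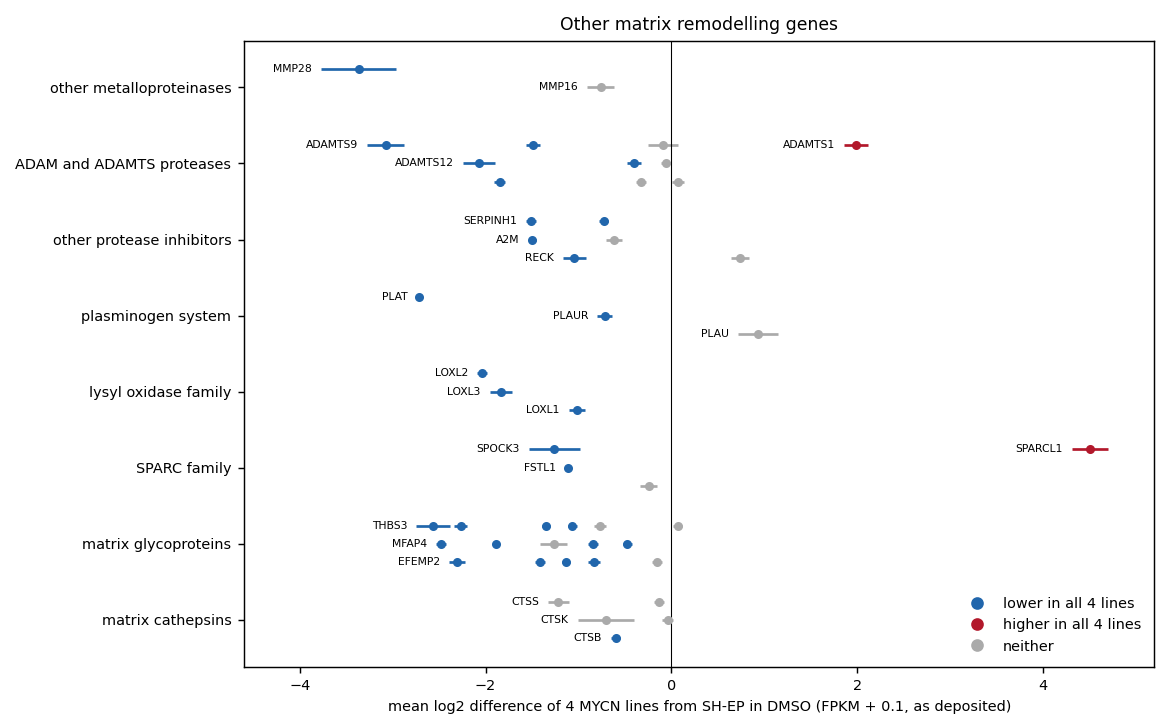
Mean log2 difference of the 4 MYCN lines from SH-EP under DMSO (FPKM + 0.1, as deposited) for the 49 tested genes of 8 lists; bars are SE, blue genes were lower and red genes higher in all 4 lines, and grey genes neither. The red points are ADAMTS1 and SPARCL1, and 30 points are blue; the place of SPARCL1 depends on the pseudocount.

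The genes whose profile over the 30 libraries was most like that of TIMP3 (Pearson r of log2 of FPKM + 0.1, as deposited) were CUL7 (0.986), CRISPLD2 (0.979), PCDH20 (0.978), PLAT (0.977) and CAMK2N1 (0.976). For FN1 they were FBN1, the microfibril protein fibrillin-1 (0.995), ITGBL1 (0.983), ECM1 (0.982), LRP1 (0.981) and the growth factor HGF (0.981). The libraries fall into 10 groups that share 5 lines, and the SH-EP difference weighs in every one of these values. CRISPLD2, for instance, averaged 6.06 FPKM in SH-EP and 0.593 in WT under DMSO, and ECM1 50.8 and 3.77.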

How the data were processed

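RNA-Seq libraries from 30 samples (5 lines, DMSO or CYC065, 3 each) were analysed from 1 table of FPKM. Per the study's methods, the authors spiked ERCC RNA into each sample in proportion to its cells, enriched poly(A) transcripts, built strand-specific libraries, aligned reads with HISAT2 to hg19 and computed the deposited FPKM with Cufflinks. The submitters' processing notes name HISAT, Cufflinks and hg19, and the gene annotation is not given in the sources used here. No read counts were used, so no counting interval is given.

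The 11575 of 26228 genes that averaged 1 FPKM or more were tested on log2(FPKM + 0.1) with limma 3.58.1 in R 4.3.3, in 1 fit over 10 groups with an intensity trend. Adjusted p is Benjamini-Hochberg over all tested genes, called under 0.05, and a fold or difference is on the log2(FPKM + 0.1) scale, which understates change in low genes. Lines were compared on deposited FPKM. CYC065 effects and interactions were tested after setting the median log2 level of 55 of 92 spike-ins equal in all libraries. No 2 libraries were identical, and log2 values of libraries in a group correlated at 0.975 to 0.987. Columns give group and a number from 0 to 2 that does not match the sample labels, and 0 columns belonged to no sample. The fit was tested on simulated data.

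Members, lists, motifs and tests were chosen with earlier results of these data known, and the ratios after seeing the values. From the lists and markers, 2 genes are not reported here. Named genes are all members, up to 3 genes per list with the largest mean difference, and the 5 most similar profiles. Gene spans are from GENCODE 44 lifted to GRCh37 and promoter sequences from the RefSeq table on GRCh38.p14, placed in GRCh37 by exact match. Alternatives were the pseudocount, filter, scaling, samples fitted, a fold minimum and leaving out each library.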

Additional observations from a re-analysis of the deposited data

Results flagged for a closer look

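A pair of results differed between lines by a test of the difference itself, both on the spike-in scale. The change of TIMP1 with CYC065 in WT minus that in SH-EP was -0.81 ± 0.29 (log2, SE, adjusted p = 0.0488 by limma), and that of SPARC was -0.74 ± 0.25 (adjusted p = 0.0442). The median gene had a WT interaction of -0.52, and relative to it TIMP1 stood at -0.29 and SPARC at -0.22. As deposited the SPARC difference was -0.31 (adjusted p = 8.85e-05) and that of TIMP1 was -0.38 and did not pass (adjusted p = 0.0681). The TIMP1 call was lost in 21 and the SPARC call in 14 of the 30 fits that left out 1 library.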

How the results depend on the processing

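The mean differences of the 8 tested members over the 4 MYCN lines kept their direction under every alternative run. With CYC065, the 6 members that the choice did not use were lower in all 4 lines whichever library was left out. In the main fit 21.0% of all genes were. Under DMSO the count of 6 was 5 to 6 with a library left out and 3 when a change of at least 1.5-fold was also asked for (MMP2, LOX and SPARC).

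Scaling decided the CYC065 results. For the members that the choice did not use, 16 of 30 pairs were lower and 0 higher. By line, 75.7% (SH-EP) to 93.7% (WT) of all genes were lower. The following counts also take in TIMP3 and FN1, whose values are descriptions without a test. With them 26 pairs were lower (10 of them of TIMP3 and FN1). That count became 0 as deposited and 0 with libraries centred on their median, 17 at 1.5-fold, and 22 to 30 with a library left out. The 0 higher pairs became 37 as deposited and 39 with median centring, the untested TIMP3 and FN1 counted. As deposited, the mean change over the MYCN lines was 0.88 for TIMP1, 0.87 for TIMP2, 0.29 for TIMP3, 0.81 for MMP2, 0.71 for MMP14, 0.69 for FN1, 0.59 for LOX and 0.72 for SPARC, and in SH-EP 1.10, 1.11, 0.72, 1.03, 0.93, 0.77, 1.05 and 1.05 in the same order. With median centring the same values were 1.05, 1.05, 0.46, 0.98, 0.88, 0.87, 0.76 and 0.89, and in SH-EP 1.24, 1.25, 0.85, 1.17, 1.07, 0.91, 1.19 and 1.19.

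The 2 interaction calls became 0 with a pseudocount of 1, 0 without a filter, 12 as deposited and 10 with median centring, and ranged from 0 to 5 with a library left out, 5 without T58A DMSO library 1, WT DMSO library 1 or WT CYC065 library 0. With only the groups compared in the fit 2 other calls took their place, LOX in WT (adjusted p = 0.0304) and SPARC in S62A (0.0291). The FN1 interaction in WT turned to 0.083 as deposited and 0.12 with median centring.

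Among MYCN lines, 37 calls, the untested TIMP3 and FN1 counted, became 18 with spike-in scaling and 17 at 1.5-fold. They became 29 with only the groups compared in the fit, 40 without a filter, where MMP3 passed in 3 pairs, and 36 to 38 with a library left out. Spike-in scaling turned the direction for TIMP2, MMP2, MMP14 and FN1 in S62A against WT (-0.13, -0.13, -0.37 and -0.68), for TIMP2, MMP14 and FN1 in T58A S62A against WT (0.073, 0.16 and 0.083), for TIMP1, TIMP3 and MMP2 in S62A against T58A (-0.66, -0.14 and -0.64), and for TIMP1, TIMP2, TIMP3, MMP2, MMP14, FN1 and LOX in T58A S62A against S62A (0.64, 0.20, 0.67, 0.50, 0.53, 0.76 and 0.19). The scaling itself moves the median gene in these contrasts, and no other cause was tested.

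No paired analysis was possible because the table's columns carry numbers from 0 to 2 that do not match the replicate numbers of the labels. Depth was lower with CYC065, which limits LOX, MMP1 and MMP3.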
